A study of Mus musculus with 6 samples.

Results

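Eph receptors and ephrins are partner proteins of the cell surface, and 10 of their genes are described here: the receptors Epha2, Epha3, Epha4, Epha7, Epha8, Ephb2, Ephb3 and Ephb4 and the ephrins Efnb1 and Efnb2. They were taken by symbol from a deposited table of 14228 genes, and all 10 were found in it. RNA 3′ ends were counted by MARS-seq in 6 libraries of stomach cells sorted as podoplanin-positive, with CD31-, CD45- and EpCAM-positive cells removed. Of these, 3 were labelled cancer-associated fibroblasts (CAF) and 3 normal fibroblasts. All mice, controls included, were 8 weeks old and carried the triple-transgenic iLgr5;GLI2A set, in which an active GLI2 can be induced in Lgr5-expressing cells. The CAF mice were gavaged with tamoxifen in corn oil for 5 days and then ate doxycycline chow for 3 weeks, with doxycycline water during the first 3 days. Control mice had corn oil and no doxycycline, so what the drugs did and what the tumours did cannot be told apart. The cells of 1, 2 and 2 mice made up CAF libraries 1, 2 and 3, and those of 1, 1 and 2 mice made up normal libraries 1, 2 and 3.

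Eph receptors are receptor tyrosine kinases that bind ephrins on a neighbouring cell. A-class receptors mostly bind the GPI-anchored ephrin-As and B-class receptors the transmembrane ephrin-Bs, and signals run into both cells, forward through the receptor and in reverse through the ephrin. Contact often ends in repulsion, which sorts cells, sets tissue boundaries, guides axons and separates arteries from veins, and in the intestine EphB receptors place epithelial cells along the crypt axis.

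The promoter of Epha8, the gene with the largest difference, was among the richest in CpG of all mouse promoters. Windows from 250 bases before to 50 after the gene start were taken from RefSeq (GRCm38.p6), which matched all 10 genes. The windows of the 3 genes that were higher in every CAF library than in every normal library are printed 5′ to 3′ on the gene's strand, so that their composition can be compared: Epha8 (chr4:136956767-136957066, minus strand), Ephb2 (chr4:136835963-136836262, minus strand) and Efnb1 (chrX:99135811-99136110, plus strand). Capitals mark matches to the GC box, GGGCGG, on either strand.
Epha8: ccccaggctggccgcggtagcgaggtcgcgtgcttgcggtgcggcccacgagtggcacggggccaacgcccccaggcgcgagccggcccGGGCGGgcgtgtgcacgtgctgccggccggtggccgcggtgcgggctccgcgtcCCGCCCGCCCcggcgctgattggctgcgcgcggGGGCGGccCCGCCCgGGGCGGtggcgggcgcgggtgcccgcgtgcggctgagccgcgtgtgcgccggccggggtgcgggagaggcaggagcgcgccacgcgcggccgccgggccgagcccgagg
Ephb2: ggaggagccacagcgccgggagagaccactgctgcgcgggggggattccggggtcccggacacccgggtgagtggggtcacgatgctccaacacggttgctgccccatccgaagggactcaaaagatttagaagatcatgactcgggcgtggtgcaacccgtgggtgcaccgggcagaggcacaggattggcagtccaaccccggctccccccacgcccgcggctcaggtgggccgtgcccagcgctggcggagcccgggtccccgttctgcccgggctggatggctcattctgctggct
Efnb1: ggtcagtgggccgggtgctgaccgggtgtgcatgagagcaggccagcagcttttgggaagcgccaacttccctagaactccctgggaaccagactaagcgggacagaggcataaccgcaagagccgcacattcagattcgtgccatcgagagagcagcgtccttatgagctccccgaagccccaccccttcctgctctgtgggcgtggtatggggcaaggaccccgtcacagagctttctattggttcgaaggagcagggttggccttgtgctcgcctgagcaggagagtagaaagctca

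The Epha8 window was 84.3% GC with 56 CpG dinucleotides, at percentile 99.8 of 32851 windows in both measures, where the medians were 52.7% and 7. Ephb2 had 68.7% GC and 24 CpG, and Efnb1 59.7% and 14. Windows of the other 7 genes ran from 54.7% and 10 CpG in Epha2 to 72.3% and 35 in Efnb2. Epha8 held 6 GC boxes, of which 2 share letters, and Ephb2 and Efnb1 held 0. That motif is in 35.7% of all windows. Both strands were also searched for the heat shock element core GAANNTTC, the GLI site GACCACCCA, the AP-1 site TGANTCA, the TEAD site GGAATG and the TATA box TATAAA. These letters are in 7.86%, 0.253%, 7.81%, 14.7% and 13.6% of all windows, and none was in the 3 windows printed. Among the other 7 genes GGAATG was in the windows of Epha2, Epha3 and Efnb2, and TATAAA in that of Efnb2. Such matches describe letters, not sites in use.

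**Figure D1:**
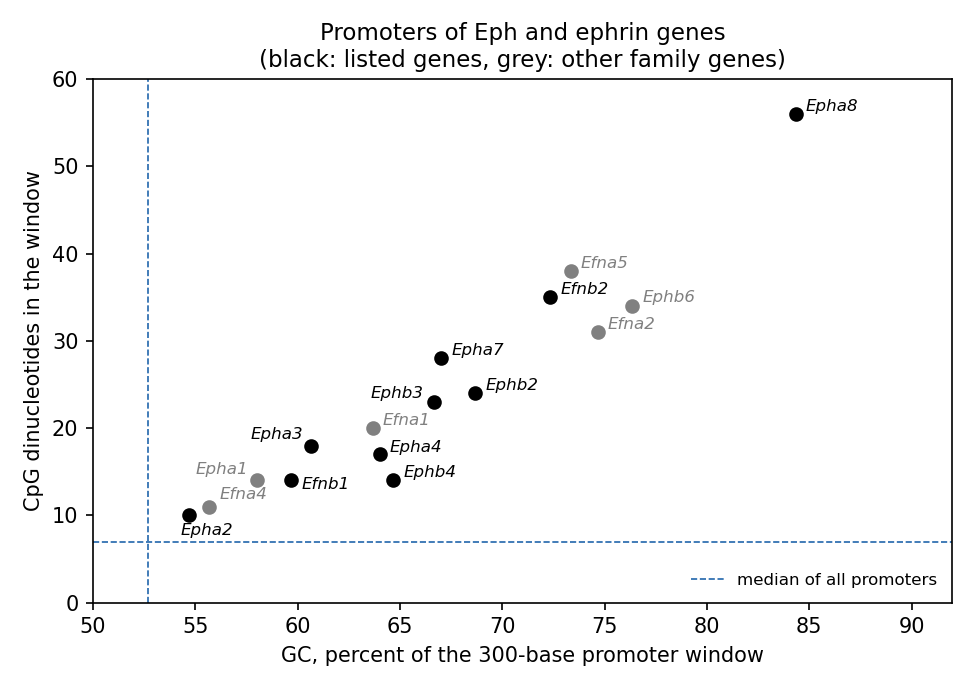
GC percent (horizontal axis) and number of CpG dinucleotides (vertical axis) in the promoter window of each Eph and ephrin gene with a RefSeq window, the 10 listed genes in black and others of the family in grey, with dashed lines at the medians of all windows (52.7% and 7). Epha8 stands apart at 84.3% and 56.

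Depth ranged from 644522 to 6422568 counts in CAF and from 768420 to 3259644 in normal libraries. Levels are in CPM, the count over the scaled size of its library. The 12 fibroblast identity markers, all in the table, summed to 11080 to 35183 CPM in CAF and 6726 to 17232 CPM in normal libraries. Gastric chief and parietal markers (7 of 9 in the table) summed to 1568 to 4069 CPM in CAF and to 206211, 141701 and 13028 CPM in normal libraries 1, 2 and 3. The 9 gastric pit and neck markers, all in the table, summed to 1545 to 5827 CPM in CAF and to 54734, 42992 and 26530 CPM in normal libraries. Gland RNA was thus highest in normal libraries 1 and 2, and in normal library 3 it was also above every CAF library. Against the others of their group, CAF library 1 and normal libraries 1 and 3 ran higher for genes with GC-rich 3′ ends (correlations across genes of 0.52, 0.20 and 0.21), and CAF libraries 2 and 3 and normal library 2 ran lower (-0.48, -0.46 and -0.41). These are called the GC-rich and GC-poor sides, and CAF was also compared with normal within each. A side ranks a library only against its own group, so CAF and normal libraries of a side are not matched in base composition. Each such comparison sets 1 library against 2. In such bulk samples fewer cells of a type and less RNA per cell cannot be told apart.

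Of the 10 genes, Epha8 rose in CAF, and no other passed the test. Epha8 was counted in every CAF library and had 0 counts in every normal library. Efnb1 and Ephb2 were also higher in all 3 CAF libraries than in all 3 normal libraries, without passing, and the other 7 genes overlapped between the groups. By the quasi-likelihood test of edgeR, with p-values adjusted by the Benjamini-Hochberg method, 8 of the 10 passed the filter on low counts, 1 was called higher and 0 lower at an adjusted p under 0.05. Of all 10148 genes tested 1.10% were called, 0.897% higher and 0.207% lower. At an unadjusted p under 0.05 edgeR also gave 1 higher and 0 lower (7.37% and 7.97% of all genes tested). DESeq2 called 1 higher and 0 lower (392 and 514 of 14215 genes), and limma-voom called 0 (49 higher and 16 lower of 10148). All CAF libraries were above all normal libraries for 3 of the 10 and for 10.4% of the 14228 genes, and below them for 0 of the 10 and for 8.55%. The median log2 fold change of the 8 tested genes was 0.51, against 0.06 over all genes tested.

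**Figure D2:**
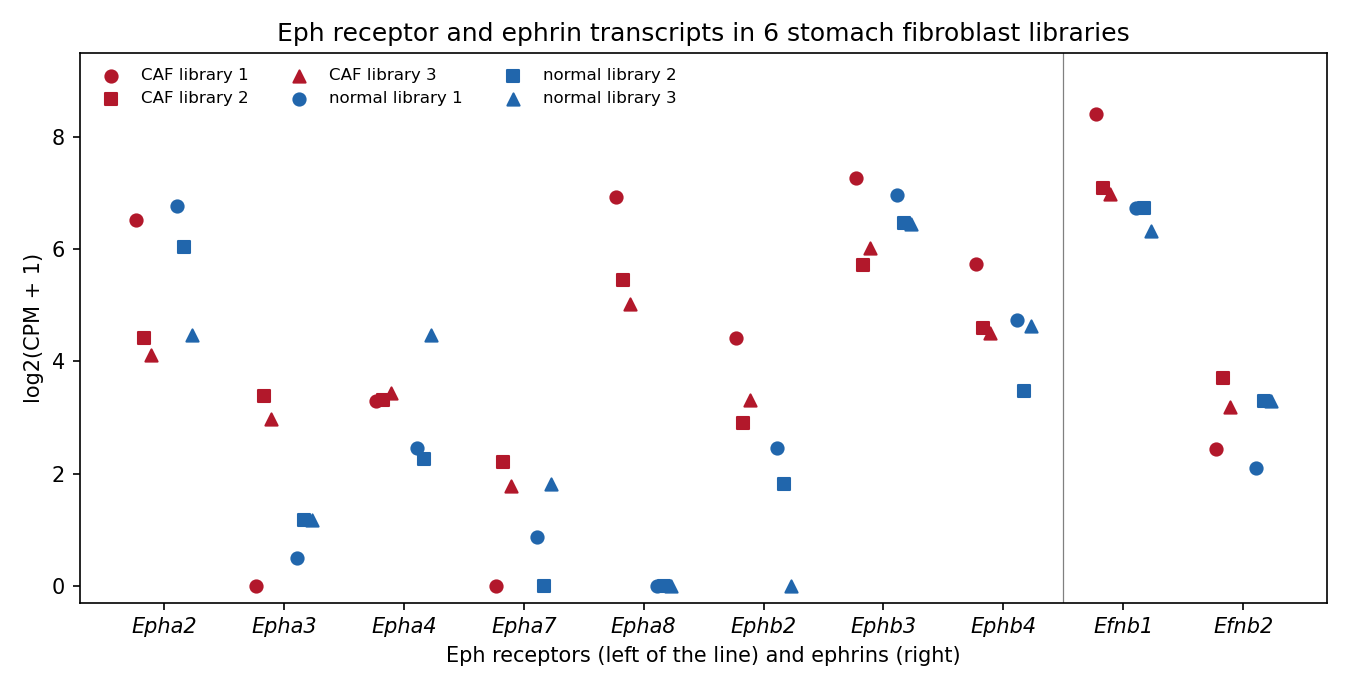
Level of the 10 genes in each library, as log2(CPM + 1) on the vertical axis, with CAF libraries in red, normal libraries in blue and a marker shape for each library number. Epha8 lies at 0 in all 3 normal libraries and well above it in all 3 CAF libraries, while CAF library 1 is the highest CAF library for 6 genes, Epha2, Epha8, Ephb2, Ephb3, Ephb4 and Efnb1.

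Epha8 encodes an A-class receptor known from axon guidance in the midbrain. Its gene lies on the minus strand of chromosome 4 (GRCm38, 136929419 to 136956816) and overlaps no other annotated gene. It had 83, 309 and 232 counts in CAF libraries 1, 2 and 3, or 121, 42.6 and 31.4 CPM, and 0 counts in each normal library. The groups were apart, with CAF library 1 the highest. The CAF mean was 65.2 ± 49.1 CPM (SD, n = 3). A level of up to 0.743 CPM is allowed by 0 counts over the 3 normal libraries (3 counts over the group, counting error only). By this floor the CAF mean was at least 87.7-fold above the normal level. The bound leaves out the spread of the CAF libraries. The bound was at least 49.8-fold without CAF library 1 and at least 34.5-fold without normal library 1. A total of 0 in the normal libraries was seen in 3.09% of the genes in the table. Among tested genes that share is set by the filter, which such a gene, Epha8 included, passes only through its CAF counts. Within the GC-rich side Epha8 was at 121 CPM in CAF and 0 in normal, and within the GC-poor side at 37.0 CPM and 0.

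The adjusted p of Epha8 was 0.0412 by edgeR. The call was lost in 5 of the 6 edgeR fits with 1 library left out, each with fewer libraries. The adjusted p was then 0.0575, 0.125 and 0.0766 without CAF library 1, 2 or 3, and 0.188 and 0.116 without normal library 1 or 2, but 0.0188 without normal library 3. In the authors' deposited table Epha8 had a log2 fold change of 8.64 and an adjusted p of 1.57e-07. It was the 1 listed gene under 0.05 in the authors' deposited table, where 6.37% of all genes were.

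Sums of markers of some other cell types were also higher in the CAF libraries. The 7 mesothelial markers, all in the table, summed to 979, 394 and 383 CPM in CAF libraries 1, 2 and 3 and to 74.3, 69.7 and 11.3 CPM in normal libraries 1, 2 and 3. Most of that was the keratin gene Krt7, which other epithelia express too. The next, Wt1, was at 0, 16.6 and 60.2 CPM in CAF and at 0, 7.60 and 1.25 CPM in normal libraries, and 3 counts in CAF library 1, the shallowest, are 4.39 CPM. The defining marker Msln was at 5.85 to 9.87 CPM in CAF and at 0 to 1.27 CPM in normal libraries, and Upk3b had 0 counts in the normal libraries.

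Glial and neuronal markers (5 of 9 in the table) summed to 69.8 to 132 CPM in CAF and 20.0 to 36.7 CPM in normal libraries. Within that list S100b, a calcium-binding protein of glia and other cells, rose in CAF, from 0.816, 2.53 and 3.75 CPM in normal libraries to 104, 65.4 and 37.3 CPM (adjusted p = 0.0247 by edgeR). S100b made up most of the sum in each CAF library. It was the 1 gene of that list with every CAF library above every normal library. Uchl1, a deubiquitinase of neurons, overlapped between the groups. Of the 11 general epithelial markers, all in the table, 3 had a positive log2 fold change and the median was -1.03. By edgeR 0 were called, with 2 higher and 2 lower at an unadjusted p under 0.05, against 7.37% and 7.97% of all genes tested. DESeq2 called 1 higher and 2 lower, against 392 and 514 of 14215 genes, and limma-voom 0. The list summed to 3033, 1361 and 1374 CPM in CAF and 5379, 2809 and 1131 CPM in normal libraries, so its groups overlapped. Of its genes, 1 was lower in every CAF library than in every normal library. Against the negative median of the list, the claudins Cldn4 and Cldn7, picked out after their values were seen, were higher in every CAF library. Cldn7 was at 174, 86.3 and 83.0 CPM in CAF and 19.6, 22.8 and 2.50 CPM in normal libraries. Epcam, against which the cells were sorted, overlapped between the groups, at 233, 127 and 114 CPM in CAF and 150, 78.5 and 13.8 CPM in normal libraries. The part of these cells in the Epha8 result was not tested.

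Among 9523 tested genes with a mean of at least 20 counts, the 3 most like Epha8 in their pattern over the 6 libraries included Sla2, an adaptor of lymphocyte receptors (Pearson r = 1.00 on log2 CPM), and Frmpd1 (r = 0.998). Sla2 was at 26.3, 11.2 and 10.0 CPM in CAF libraries 1, 2 and 3 and Frmpd1 at 39.5, 15.9 and 9.06 CPM, and both had 0 counts in the normal libraries. Like Epha8, these genes pass the filter only through their CAF counts, and a shared 0 in the normal libraries by itself gives a high r. Depth and base composition also differ between the libraries and can move many genes together. The correlations are therefore descriptions.

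Epha2, a receptor of epithelia, did not separate the groups. It was at 90.7, 20.3 and 16.2 CPM in CAF libraries 1, 2 and 3 and at 108, 64.6 and 21.3 CPM in normal libraries 1, 2 and 3. Each group held both high and low libraries. The log2 fold change was -0.72 ± 0.80 (SE; adjusted p = 0.748 by edgeR), with -1.82 within the GC-poor side and 0.49 within the GC-rich side. The general epithelial markers, led by Krt18 and Krt8, summed to 3033, 1361 and 1374 CPM in CAF and 5379, 2809 and 1131 CPM in normal libraries. Normal library 1, CAF library 1 and normal library 2 were the highest, in that order, for both Epha2 and that sum. Among the rest the orders were reversed, with normal library 3, CAF library 2 and CAF library 3 falling for Epha2 and rising for the sum. The part of epithelial RNA in Epha2 was not tested.

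Epha3, Epha4 and Epha7 had few counts. Epha3, a receptor of embryonic mesenchyme and of tumour stroma, had 0, 68 and 51 counts in CAF libraries 1, 2 and 3 and 1 count in each normal library. CAF libraries 2 and 3, at 9.38 and 6.90 CPM, were above all normal libraries, at 0.408 to 1.27 CPM, while CAF library 1, in which 3 counts are 4.39 CPM, had none. It fell below the filter, and without the filter its log2 fold change was 2.89 ± 1.14 (SE; adjusted p = 0.261 by edgeR). Epha7, a receptor of the developing nervous system, had 0, 26 and 18 counts in CAF and 2, 0 and 2 in normal libraries. It too fell below the filter, and its log2 fold change without it was 1.26 ± 1.09 (adjusted p = 0.629 by edgeR). Gm11915 overlaps Epha7 on the other strand, and whether strand was used in counting is not given in the sources used here.

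Epha4, which binds ephrins of both classes, was the most even of the 10 in CAF, at 8.78, 8.97 and 9.87 CPM. These rest on 6, 65 and 73 counts, so the value of CAF library 1 is uncertain. In normal libraries 1, 2 and 3 Epha4 was at 4.49, 3.80 and 21.3 CPM, on 11, 3 and 17 counts. Normal library 3 lay above, and the other normal libraries below, all CAF libraries. The log2 fold change was -0.02 ± 0.72 (SE; adjusted p = 0.995 by edgeR), and 1.06 without normal library 3. It was 1.31 within the GC-poor side and -0.55 within the GC-rich side.

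Ephb3, a B-class receptor and Wnt target of gut epithelium, overlapped between the groups. It was at 154, 51.8 and 64.0 CPM in CAF libraries 1, 2 and 3 and at 124, 87.4 and 86.3 CPM in normal libraries 1, 2 and 3. CAF library 1 lay above, and the other CAF libraries below, all normal libraries. The log2 fold change was -0.18 ± 0.46 (SE; adjusted p = 0.908 by edgeR), with -0.59 within the GC-poor and 0.54 within the GC-rich side.

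Ephb4, the receptor that marks veins and binds ephrin-B2, was at 52.7, 23.0 and 21.6 CPM in CAF and 25.7, 10.1 and 23.8 CPM in normal libraries. The groups overlapped, with CAF library 1 the highest and normal library 2 the lowest. The log2 fold change was 0.63 ± 0.52 (SE; adjusted p = 0.655 by edgeR), with 1.14 and 1.09 within the GC-poor and GC-rich sides. Vascular endothelial markers (10 of 12 in the table, led by Esam and Egfl7) summed to 67.3 to 70.0 CPM in CAF and 46.3 to 77.3 CPM in normal libraries. The CD31 gene Pecam1 had 0 counts in CAF library 1 and in normal library 3. Zan overlaps Ephb4 on the other strand.

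Ephb2, a receptor of intestinal crypts and of synapses, had 14, 47 and 66 counts in CAF libraries 1, 2 and 3, or 20.5, 6.49 and 8.93 CPM. In normal libraries 1, 2 and 3 it had 11, 2 and 0 counts, or 4.49, 2.53 and 0 CPM. All CAF libraries were above all normal libraries, though normal libraries 2 and 3 were below the level of 3 counts (3.80 and 3.75 CPM). The log2 fold change was 1.99 ± 0.86 (SE) and did not pass (adjusted p = 0.33 by edgeR). It was 1.61 within the GC-poor side and 3.19 within the GC-rich side.

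Ephb2 is a neighbour of Epha8 on the minus strand of chromosome 4 (136647539 to 136835988), 93.4 kb away. The 3 annotated genes between them, C1qa, C1qb and C1qc, encode the chains of complement C1q, which macrophages make. C1qa was at 2.93, 2.48 and 17.7 CPM in CAF libraries 1, 2 and 3 and at 10.2, 60.8 and 3.75 CPM in normal libraries 1, 2 and 3. All 3 C1q genes overlapped between the groups, with normal library 2 the highest.

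**Figure D3:**
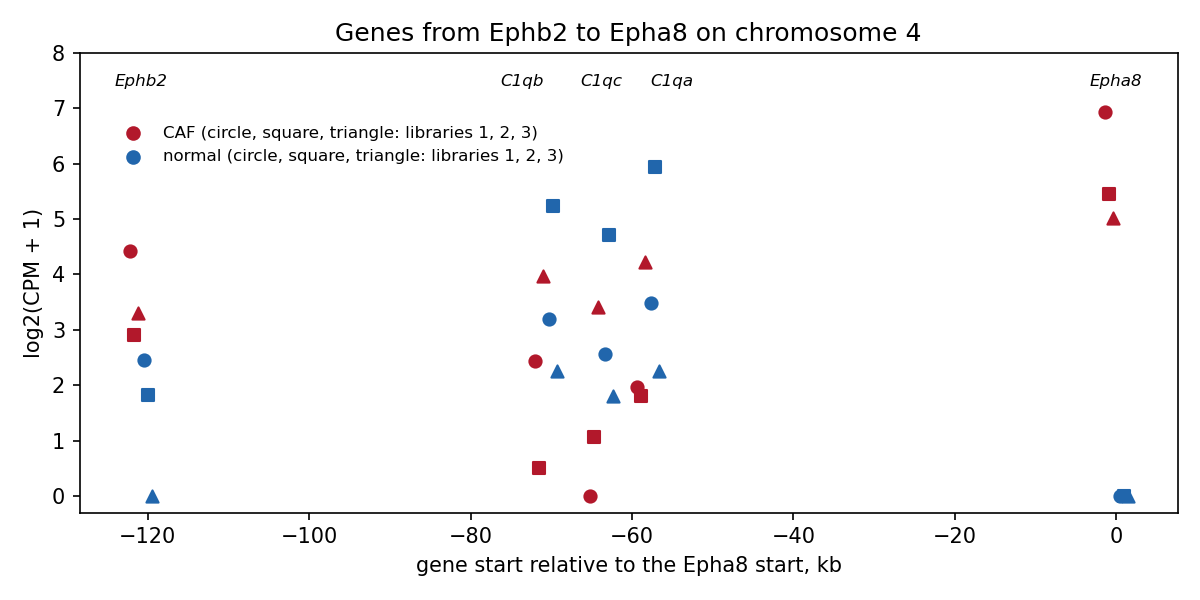
Level of the 5 genes from Ephb2 to Epha8 in each library, as log2(CPM + 1) on the vertical axis, against the distance of each gene's start from that of Epha8 in kb, with CAF libraries in red and normal libraries in blue. Points are spread slightly along the horizontal axis for legibility, and Ephb2 and Epha8 are higher in every CAF library while the 3 C1q genes overlap.

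Efnb1 encodes ephrin-B1, a transmembrane ligand that patterns skeletal and craniofacial mesenchyme. It lies on the plus strand of chromosome X (99136130 to 99148991). It was at 341, 135 and 126 CPM in CAF libraries 1, 2 and 3 and at 105, 105 and 78.8 CPM in normal libraries 1, 2 and 3. All CAF libraries were above all normal libraries, CAF library 1 by far and the other 2 by little. The means were 201 ± 122 and 96.4 ± 15.2 CPM (SD, n = 3 each). The log2 fold change of 1.04 ± 0.45 (SE), or 2.06-fold, did not pass (adjusted p = 0.326 by edgeR). It was 0.44 without CAF library 1, and 0.31 and 1.89 within the GC-poor and GC-rich sides.

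Efnb2 encodes ephrin-B2, which marks arteries. It was at 4.39, 12.0 and 8.12 CPM in CAF and 3.26, 8.87 and 8.75 CPM in normal libraries, on 3 to 87 counts a library. The groups overlapped, and the log2 fold change was 0.40 ± 0.62 (SE; adjusted p = 0.83 by edgeR).

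**Figure D4:**
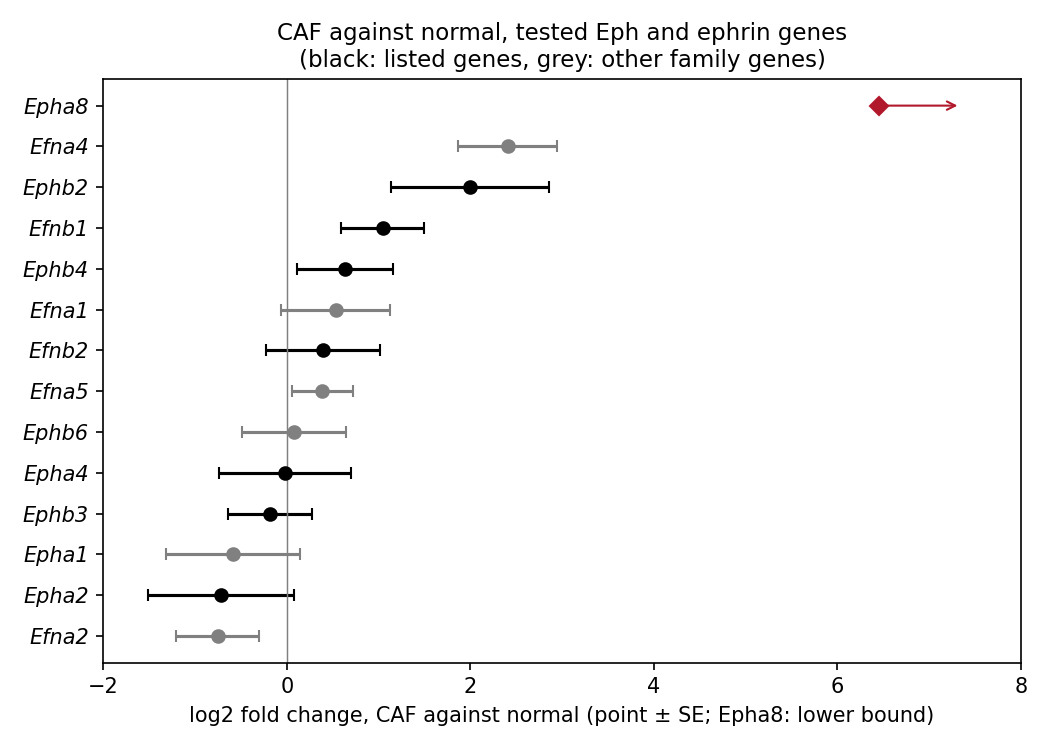
Log2 fold change of CAF against normal (horizontal axis) with its standard error for the 14 tested genes of the family, the listed genes in black and the others in grey. Epha8 is drawn in red at the log2 of its lower bound of 87.7-fold, with an arrow, and the next is Efna4 at 2.41.

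Of 22 family symbols looked for, 17 were in the table, so 7 stood beside the 10. Efna4, an A-class ephrin, was the nearest to a call among them. It was at 90.7, 40.0 and 39.5 CPM in CAF libraries 1, 2 and 3 and at 14.7, 10.1 and 5.00 CPM in normal libraries 1, 2 and 3. The groups did not overlap, and CAF library 1 was again the highest. Its log2 fold change of 2.41 ± 0.54 (SE) did not pass by edgeR (adjusted p = 0.0765) and passed by DESeq2 (adjusted p = 0.00341). It was 1.97 and 3.20 within the GC-poor and GC-rich sides. 4731419I09Rik overlaps Efna4 on the other strand. Efna1, Efna2, Efna5, Epha1, Ephb6 and Efnb3 overlapped between the groups. Their fitted log2 fold changes ran from -0.75 for Efna2 to 0.53 for Efna1, and Efnb3 fell below the filter.

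Within the counts of the 17 family genes, which are not scaled to gene length, Efnb1 and Ephb3 took up the most in every library but normal library 1, where Epha2 came between them. Family counts ranged from 257 in normal library 3 to 3104 in CAF library 2. Ephb3 held 15.4%, 12.1% and 15.3% in CAF libraries 1, 2 and 3 and 25.5%, 22.6% and 26.8% in normal libraries 1, 2 and 3. The groups did not overlap, and the exact binomial 95% intervals of normal library 2 (18.0% to 27.7%) and CAF library 1 (12.8% to 18.3%) met. Efnb1 held 34.2%, 31.5% and 30.1% in CAF and 21.6%, 27.2% and 24.5% in normal libraries, also without overlap. The interval of normal library 2 (22.3% to 32.6%) held the shares of CAF libraries 2 and 3, and that of normal library 3 reached 30.2%. Epha8 held 12.2%, 9.95% and 7.48% in CAF and 0% in normal libraries, where 0 counts allow up to 1.43% by that interval in normal library 3. With 3 libraries against 3, the exact two-sided permutation p of the Ephb3 and of the Efnb1 share was 0.1, the smallest this design can give. Groups without overlap always give that p here, so it adds nothing to the lack of overlap. A share falls when other genes of the family rise, and without Epha8 and Efna4 the Ephb3 share was 19.6%, 15.0% and 18.4% in CAF and 26.3%, 23.2% and 27.3% in normal libraries.

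**Figure D5:**
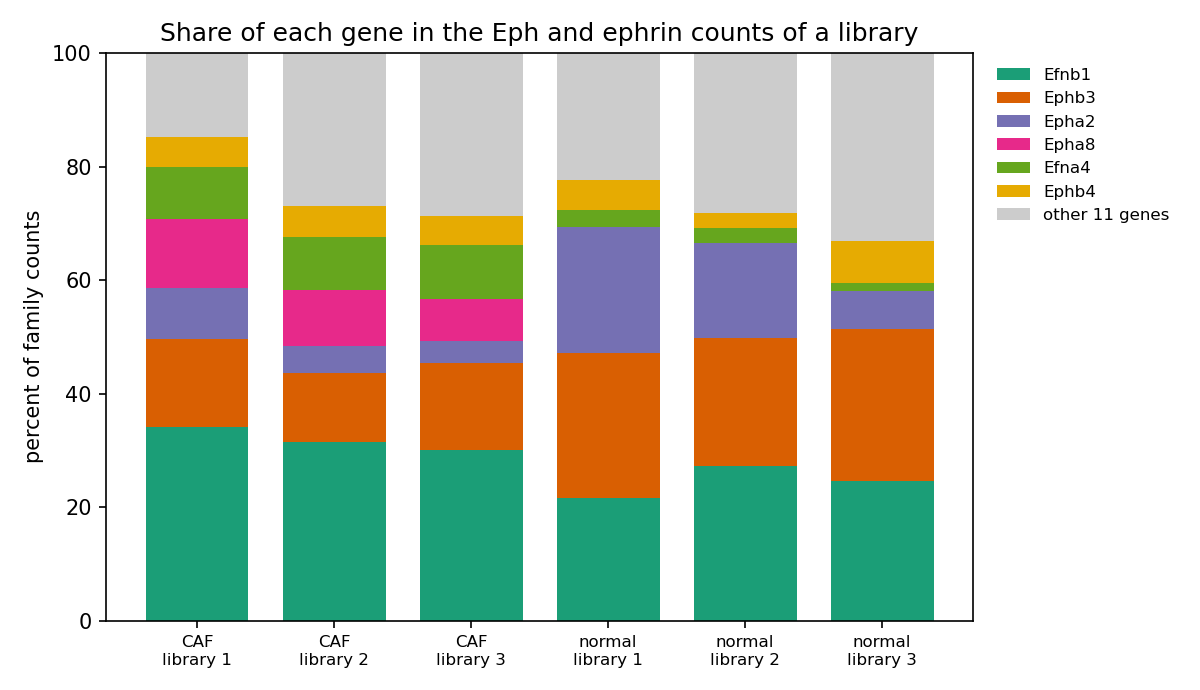
Percent of the Eph and ephrin counts of each library held by 6 genes and by the other 11 together, as stacked bars from 0 to 100 with 1 bar per library. Epha8 is present in the 3 CAF bars (7.48% to 12.2%) and missing from the 3 normal bars, and the Ephb3 band is narrower in the CAF bars.

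Partner genes of the pathway showed no called change. In 5 lists of Eph and ephrin signalling genes, 58 of 60 genes were in the table and 47 were tested, and edgeR called 0 of them, with 5 higher and 3 lower at an unadjusted p under 0.05, against 7.37% and 7.97% of all genes tested. DESeq2 called 1 higher and 1 lower, against 392 and 514 of 14215 genes, and limma-voom 0. Their median log2 fold change was 0.34, and 33 of the 47 were positive, against 53.9% of all genes tested. All CAF libraries were above all normal libraries for 10 of the 58 and below them for 5, against 10.4% and 8.55% of the 14228 genes.

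The lists described singly are given by their 2 genes of smallest p. Their medians shifted when single libraries were left out or the GC side was a block. Leaving out a library also changed which genes passed the filter, with 8468 to 11888 genes tested against 10148. Those medians therefore need not cover the same genes of a list, and the 2 effects were not separated. The median of forward signalling was -0.24 without CAF library 1. That of reverse signalling was -0.10 without CAF library 1, -0.14 without normal library 2 and -0.37 with the GC side as a block. That of shedding and turnover ran from 0.21, without normal library 1, to 0.61 with 1 library left out. That of kinases and phosphatases was 0.08 without normal library 2 and 0.36 without normal library 3. That of the other guidance families was -0.12 without CAF library 1 and 0.52 with the GC side as a block. Among exchange factors and adaptors of forward signalling (14 tested, median 0.30), Anks1, an adaptor of Eph receptors, was at 29.3, 27.1 and 30.7 CPM in CAF and 69.0, 49.4 and 92.5 CPM in normal libraries. Its groups did not overlap, and its log2 fold change was -1.28 ± 0.34 (SE; adjusted p = 0.109 by edgeR). Ngef, or ephexin, an exchange factor bound by EphA4, had -1.49 (adjusted p = 0.292 by edgeR). Among kinases and phosphatases (8 tested, median 0.16), the tyrosine kinases Src and Ptk2 had 0.58 each (adjusted p = 0.676 and 0.695 by edgeR).

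Among proteins that bind the ephrin-B tail in reverse signalling (8 tested, median 0.20), the PDZ protein Sdcbp had a log2 fold change of 1.48 and Rgs3, a regulator of G-protein signalling, -1.42 (adjusted p = 0.369 and 0.374 by edgeR). Among genes of shedding and turnover (9 tested, median 0.69), the presenilin Psen2 had -0.84 and the ubiquitin ligase Cbl 1.41 (adjusted p = 0.224 and 0.296 by edgeR), neither with overlap between the groups. The other guidance families were semaphorins, plexins, neuropilins, slits and netrins (26 in the table, 17 tested, median 0.16). Of these edgeR called 0, with 2 higher and 2 lower at an unadjusted p under 0.05, against 7.37% and 7.97% of all genes tested. DESeq2 called 1 higher and 0 lower, against 392 and 514 of 14215 genes, and limma-voom 0. The semaphorin receptor Nrp2 was at 89.2, 72.7 and 91.4 CPM in CAF and 22.0, 19.0 and 47.5 CPM in normal libraries (adjusted p = 0.117 by edgeR), without overlap.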

How the data were processed

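RNA was counted in 6 libraries, 3 CAF and 3 normal, from separate mice or pairs of mice. Tools listed in the submitters' processing notes are cutadapt, STAR, HTSeq and DESeq2, with the build mm10, and no source used here gives the annotation, strand or use of molecular identifiers. The authors deposited raw counts per gene symbol, which were tested here. Per the file headers, the table also holds a normalized signal (counts over 1 size factor per library in the values), regularized log2 values, not used, and the authors' log2 fold changes and p-values. The table holds only genes that reach 6 counts in 1 or more libraries.

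Genes were filtered with filterByExpr and tested with edgeR 4.0.16 (R 4.3.3, TMM scaling, quasi-likelihood, group term only), with Benjamini-Hochberg adjustment over 10148 genes and a threshold of 0.05. The scripts were tested on simulated data. Standard errors were derived from the F statistic and are approximate. Depth is in the report, and intervals and floors cover counting error only. GC is of the last 1000 bases of a transcript, known for 98.8% of tested genes. Coordinates are from GENCODE M21 (GRCm38, the build of mm10). Alternatives were DESeq2 1.42.0, limma-voom (limma 3.58.1), other scalings and filters, libraries left out, gland genes left out, mice per library as a covariate and, added after seeing the data, the GC side as a block. Named are the listed genes, other family genes, 2 genes of smallest p per list, markers by sum with the 2 of highest mean, and genes of like pattern; some that these rules take are not reported here. Members and lists were chosen with earlier results of these data known.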

Additional observations from a re-analysis of the deposited data

How the results depend on the processing

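Over all genes, edgeR called 91 genes higher and 21 lower in CAF. DESeq2 called 392 and 514, limma-voom 49 higher, raw library totals 141 higher, no filter on low counts 40 lower, a stricter filter (10 or more counts in 3 libraries) 12 lower, and a fit with mice per library as a term 8 lower. Without normal libraries 1 and 2, 0 were called in either direction. With 1 library left out the counts ran from 0 to 412 higher and from 0 to 781 lower, the highest without normal library 3 and 0 in both directions without normal library 1. Where a group is left with 1 library, it is assumed to vary like the other group.

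Of the listed genes, 1 was called, and 0 by limma-voom, without normal libraries 1 and 2, and in 5 of 6 fits with 1 library left out (range 0 to 1). The adjusted p of Epha8 was 0.0412, 0.0572 by limma-voom, 0.334 without normal libraries 1 and 2, and 0.0188 to 0.188 with 1 library left out. The other settings kept it under 0.05. Raw library totals moved the median log2 fold change of all genes from 0.06 to 0.40, so changes under that scaling are relative to 0.40.

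Direction turned under some settings for genes that were not called. Epha4 (-0.02) was at 0.59 by limma-voom, 0.010 with the stricter filter and 0.38 with the GC side as a block. It ran from -0.45 to 1.06 with 1 library left out, and Ephb3 (-0.18) from -0.79 to 0.12. With raw library totals Epha4 was at 0.22 and Ephb3 at 0.16. Both were above 0 but below the median of 0.40 under that scaling, so relative to it neither turned. Without normal libraries 1 and 2, Epha2 was at 0.93, Ephb3 at 0.063, Epha1 at 1.95 and Ephb6 at -0.75. In the fit with mice per library as a term, Efnb2 was at -0.020, Epha1 at 0.38 and Ephb6 at -0.039. Efna1 was at -0.036 by limma-voom. With 1 library left out, Epha1 ran from -1.14 to 0.29, Ephb6 from -0.20 to 0.69 and Efna1 from -0.043 to 1.05. Efna4 passed by DESeq2, with raw library totals (adjusted p = 0.0409 by edgeR) and with mice per library as a term (adjusted p = 0.035 by edgeR). Ephb2, Ephb4 and Efnb1 kept their direction in every setting that gave a value. Ephb2 fell below the filter, and so gave none, without CAF library 2, CAF library 3 or normal library 1. The cause of these shifts was not tested. No paired analysis was possible because the labels give the groups no shared replicate numbers.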

Other observations

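The ratio of Efnb1 to Ephb3 counts, picked out after the values were seen, was 2.22, 2.61 and 1.97 in CAF libraries 1, 2 and 3 and 0.846, 1.20 and 0.913 in normal libraries 1, 2 and 3. The means were 2.27 ± 0.323 and 0.987 ± 0.19 (SD, n = 3 each). The exact two-sided permutation p was 0.1, the smallest this design can give. Groups without overlap always give that p here, so it adds nothing to the lack of overlap for which the ratio was picked. The ratio needs no scaling of libraries, and CAF library 1, which was high for both genes, lay between the other CAF libraries. A ratio shows unequal change and not which gene changed. The ratio of Efnb2 to Ephb4 counts, ligand to receptor of the artery and vein boundary, was 0.0833, 0.521 and 0.375 in CAF and 0.127, 0.875 and 0.368 in normal libraries. Its groups overlapped (exact two-sided permutation p = 0.7, n = 3 each), on as few as 3 Efnb2 counts in CAF library 1.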
